A study of Mus musculus with 23 samples.

Results

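Chromatin accessibility was described at 7 genes that move fatty acids into cells, store them in lipid droplets or release them again: Lpl, Angptl4, Fabp5, Pnpla2, Mgll, Plin2 and Plin4. The genes were taken by symbol from the gene column of the authors' peak table for each day, which named 11533 genes on at least 1 day. All 7 had a peak named for them on at least 1 day, and 6 had one on all 3 days. Mgll was the exception, with a named peak on day -2 alone. Over all genes, 11026 were named on day -2, 8998 on day -1 and 9366 on day 0. In all, 21 named peaks belonged to the 7 genes, 8 on day -2, 7 on day -1 and 6 on day 0. A further 48 peaks without a gene name lay inside the 7 gene spans or within 10 kb of them. Whether these also lay in or near other genes was not checked.

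The cells were 3T3-L1, an established mouse preadipocyte line that turns into fat cells when a hormone cocktail is added. ATAC-seq, in which a transposase cuts and tags accessible DNA, was run on nuclei from 23 libraries. On day -3 every culture received 50 nM siRNA with Lipofectamine RNAiMAX, either a non-targeting ON-TARGET control from Dharmacon, called scramble here, or Dharmacon siRNA against Kdm5c, which encodes a demethylase of histone H3 lysine 4. Nuclei were taken 24, 48 and 72 hours later, on days -2, -1 and 0. All samples lie at or before day 0, from which differentiation is counted. Each group held 4 libraries except Kdm5c siRNA on day 0, which held 3, numbered 1, 2 and 4. Whether the replicates are separate cultures is not stated in the labels, and the p-values here describe variation from library to library only, which could be technical. No RNA or protein value was used here, and accessibility at Kdm5c does not check an siRNA that acts on mRNA.

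Fat cells take up fatty acids that lipoprotein lipase (Lpl) frees from circulating lipoproteins. Angptl4 inhibits that lipase outside the cell, and Fabp5 binds fatty acids inside it. Stored triglyceride sits in droplets coated by perilipins, among them Plin2 and Plin4, and is broken down stepwise by adipose triglyceride lipase (Pnpla2), hormone-sensitive lipase and monoacylglycerol lipase (Mgll). Several of these genes are textbook targets of PPARG, the nuclear receptor that drives fat cell formation.

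Counts in nuclear peaks ranged from 1816082 to 3345583 per library on day -2, from 781309 to 1446979 on day -1 and from 1088968 to 2525925 on day 0. Mitochondrial peaks took 56.4% to 93.2% of the counts. On day -2 the share was 56.4% to 70.0% in Kdm5c siRNA and 70.4% to 76.3% in scramble, and on day 0 78.8% to 86.8% against 87.5% to 91.4%, so the arms were apart on both days. On day -1 they overlapped, at 87.6% to 92.6% and 90.9% to 93.2%. The part of this in the siRNA comparison was not tested. The day 0 Kdm5c siRNA library numbered 4 stood apart with the highest nuclear count of that day and 78.8% mitochondrial counts. Of 14 preadipocyte or fibroblast markers, 11, 9 and 9 had a named peak on days -2, -1 and 0, among them Pdgfrb, Col1a1 and Prrx1. Of 8 mature adipocyte markers, Lep was the only one with a named peak, on days -2 and 0, while Adipoq, Plin1, Cidec, Fabp4 and Cd36 had none. Named peaks at markers of other cell types were Csf1r, Cdh5, Kdr, Myod1, Myog and Krt8 on day -2 and Kdr on days -1 and 0. Their part in the results was not tested.

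Promoter sequences from RefSeq (GRCm38.p6), from 250 bases before to 50 bases after the start, were found for 4 of the 7 genes, Mgll having 2 starts. They are shown because the named peak of Plin2, Pnpla2 and Plin4 covered the transcription start on all 3 days, whereas the Mgll peak lay beside both of its starts. Capitals mark matches on either strand to 4 motifs. The E-box, bound by MYC, USF and SREBP factors, was searched as CACGTG. The GC box, bound by SP factors, was searched as GGGCGG. The CCAAT box of NF-Y was searched by its 5 letters. The nuclear receptor site, bound by PPARG with RXR among others, was searched as AGGTCA. Lpl, Angptl4 and Fabp5 are named only.
Plin2 promoter, chr4:86670010-86670309, minus strand: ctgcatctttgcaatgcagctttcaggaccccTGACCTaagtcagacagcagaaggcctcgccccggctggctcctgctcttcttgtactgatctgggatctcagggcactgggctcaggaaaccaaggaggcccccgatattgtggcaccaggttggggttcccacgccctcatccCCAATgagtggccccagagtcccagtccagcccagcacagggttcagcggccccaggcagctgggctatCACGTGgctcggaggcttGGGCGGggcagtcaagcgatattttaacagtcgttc
Pnpla2 promoter, chr7:141454938-141455237, plus strand: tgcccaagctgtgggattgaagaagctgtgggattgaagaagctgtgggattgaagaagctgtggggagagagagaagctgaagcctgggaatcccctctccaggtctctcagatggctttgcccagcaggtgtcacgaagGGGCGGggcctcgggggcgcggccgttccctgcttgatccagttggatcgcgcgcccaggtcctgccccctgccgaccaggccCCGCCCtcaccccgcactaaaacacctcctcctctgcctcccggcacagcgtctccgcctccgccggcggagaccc
Plin4 promoter, chr17:56109733-56110032, minus strand: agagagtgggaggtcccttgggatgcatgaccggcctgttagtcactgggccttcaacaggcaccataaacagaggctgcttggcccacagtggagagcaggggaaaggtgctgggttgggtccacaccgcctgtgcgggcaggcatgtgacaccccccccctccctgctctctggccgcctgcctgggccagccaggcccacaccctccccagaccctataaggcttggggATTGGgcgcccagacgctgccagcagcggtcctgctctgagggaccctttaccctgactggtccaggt
Mgll, first start promoter, chr6:88724162-88724461, plus strand: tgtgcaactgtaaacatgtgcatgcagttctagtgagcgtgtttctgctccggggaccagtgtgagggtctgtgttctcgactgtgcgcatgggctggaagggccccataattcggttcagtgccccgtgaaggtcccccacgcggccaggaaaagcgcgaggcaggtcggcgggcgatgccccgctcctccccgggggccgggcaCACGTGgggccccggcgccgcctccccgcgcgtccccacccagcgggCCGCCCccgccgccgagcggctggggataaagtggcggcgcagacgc
Mgll, second start promoter, chr6:88724454-88724753, plus strand: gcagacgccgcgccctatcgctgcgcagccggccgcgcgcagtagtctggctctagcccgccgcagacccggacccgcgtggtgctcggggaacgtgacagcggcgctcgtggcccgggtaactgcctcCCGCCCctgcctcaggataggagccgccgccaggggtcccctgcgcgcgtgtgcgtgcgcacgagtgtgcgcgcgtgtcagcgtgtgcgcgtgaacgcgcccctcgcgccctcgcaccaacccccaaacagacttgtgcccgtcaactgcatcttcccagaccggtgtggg

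The Plin2 promoter held all 4 of these motifs, with the E-box beginning at position -4 from the start, the GC box at 14, the CCAAT box at -73 and the nuclear receptor site at -218. The named Plin2 peaks covered 148, 245 and 262 bases of this window on days -2, -1 and 0. They did not reach the nuclear receptor site, but on day 0 the peak ended directly beside it. That boundary takes the deposited coordinates as given. Pnpla2 held GC boxes at -109 and -26, and Plin4 held a CCAAT box at -18. The first Mgll promoter held an E-box at -44 and a GC box at 3, and the second held a GC box at -121. Over 32851 promoters of the same length, 7.15% held an E-box, 35.7% a GC box, 37.4% a CCAAT box and 16.3% a nuclear receptor site. Also searched on both strands were the DR1 element, a nuclear receptor site repeated after 1 base (0.0396% of promoters), the palindromic glucocorticoid site (0.475%) and the AP-1 site, with any base in its middle (7.81%). The C/EBP site was searched as TTGCNNCAA (2.08%). The cAMP element was searched as TGACGTCA (1.79%). The TATA box was searched as TATAAA (13.6%). None of them was found in these 5 windows, which for C/EBP covers the searched letters alone. Every DR1 element also holds a nuclear receptor site. A match describes these letters and shows no binding.

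The genes of fatty acid uptake were accessible at their starts on every day in both arms. Values below are normalised counts, that is, a library's count in the peak divided by its size relative to the other libraries of that day. Such counts are compared within a day only. Lpl had 1 named peak each day, at chr8:68880332-68881628 on day -2, overlapping an end of the gene. On day -2 the 4 scramble libraries held 97.6, 91.0, 83.8 and 92.7 and the 4 Kdm5c siRNA libraries 104, 98.7, 109 and 118. The highest scramble library stayed below the lowest Kdm5c siRNA library. On day -1 the scramble libraries held 40.6, 44.0, 55.1 and 33.7 and the Kdm5c siRNA libraries 22.7, 41.1, 52.8 and 36.3. On day 0 they held 63.2, 48.3, 52.7 and 38.4 against 47.3, 51.4 and 42.9. The arms overlapped on both later days.

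Angptl4, the lipase inhibitor, had a named peak at chr17:33781156-33781723 on day -2, over an end of the gene. On day -2 the scramble libraries held 47.0, 61.5, 64.6 and 34.6 and the Kdm5c siRNA libraries 56.9, 61.2, 48.0 and 77.2. On day -1 the peak was called over 287 bases in place of 567, with 22.7, 16.5, 5.51 and 14.7 in scramble and 16.8, 25.1, 14.9 and 22.1 in Kdm5c siRNA. On day 0 it was 444 bases wide, with 32.1, 31.5, 38.7 and 49.9 against 38.3, 44.3 and 42.9. The arms overlapped on all 3 days, and the scramble library numbered 3 on day -1 was low. A second named peak of day -1, 155 bases wide, held 3 to 19 counts per library and was too low to be tested.

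Fabp5, the fatty acid carrier, had a named peak at its start on each day and a second one inside the gene on day -2. The first, at chr3:10012072-10012839, held 70.4, 70.5, 58.8 and 57.4 in scramble and 75.1, 61.2, 64.7 and 66.7 in Kdm5c siRNA. The second, at chr3:10013040-10013372, held 21.0, 23.1, 23.1 and 23.6 in scramble and 37.5, 29.5, 29.6 and 32.7 in Kdm5c siRNA. All 4 Kdm5c siRNA libraries exceeded all 4 scramble libraries at that second peak on day -2. On day -1 the start peak held 37.8, 28.4, 37.2 and 49.4 against 34.5, 25.1, 34.8 and 46.3. On day 0 a single peak of 1327 bases covered both places, with 80.4, 80.8, 53.9 and 95.9 against 63.9, 104 and 81.7. The arms overlapped at these 2 later peaks.

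Of the lipolysis genes, Pnpla2 carried a peak over its transcription start on every day and Mgll did not. The Pnpla2 peak, at chr7:141455025-141455831 on day -2, held 35.8, 62.8, 51.1 and 72.3 in scramble and 88.4, 78.8, 67.9 and 58.5 in Kdm5c siRNA. On day -1 it held 16, 22.0, 24.8 and 13.7 against 21.7, 30.8, 23.9 and 16.4, and on day 0 35.4, 39.9, 51.5 and 26.9 against 35.8, 47.9 and 33.5. The arms overlapped throughout, with the scramble library numbered 1 the lowest on day -2. Mgll, which removes the last fatty acid, had its only named peak at chr6:88724776-88725058 on day -2, 364 and 72 bases from its 2 starts. That peak held 22.2, 16.7, 16.4 and 10.2 in scramble and 19.4, 32.4, 15.2 and 14.0 in Kdm5c siRNA. These were low values, and the arms overlapped.

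Both perilipin genes were accessible at their starts on every day. The Plin4 peak, at chr17:56109758-56110218 on day -2, held 72.9, 79.4, 84.8 and 85.6 in scramble and 88.4, 101, 82.3 and 92.4 in Kdm5c siRNA. On day -1 it held 73.6, 64.1, 81.3 and 69.4 against 58.2, 65.1, 50.8 and 52.0, and on day 0 57.9, 59.8, 65.6 and 80.6 against 99.7, 63.9 and 84.3. Kdm5c siRNA libraries were mostly the higher ones on days -2 and 0 and mostly the lower ones on day -1, with overlap each time. The Plin2 peak, at chr4:86669628-86670157 on day -2, held 23.5, 38.4, 60.7 and 37.7 in scramble and 32.7, 30.9, 37.6 and 39.8 in Kdm5c siRNA. On day -1 it held 32.1, 25.6, 23.4 and 34.7 against 15.8, 25.1, 28.9 and 34.2, and on day 0 38.6, 56.7, 39.8 and 49.9 against 29.4, 33.7 and 49.2. The arms overlapped on every day.

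**Figure D1:**
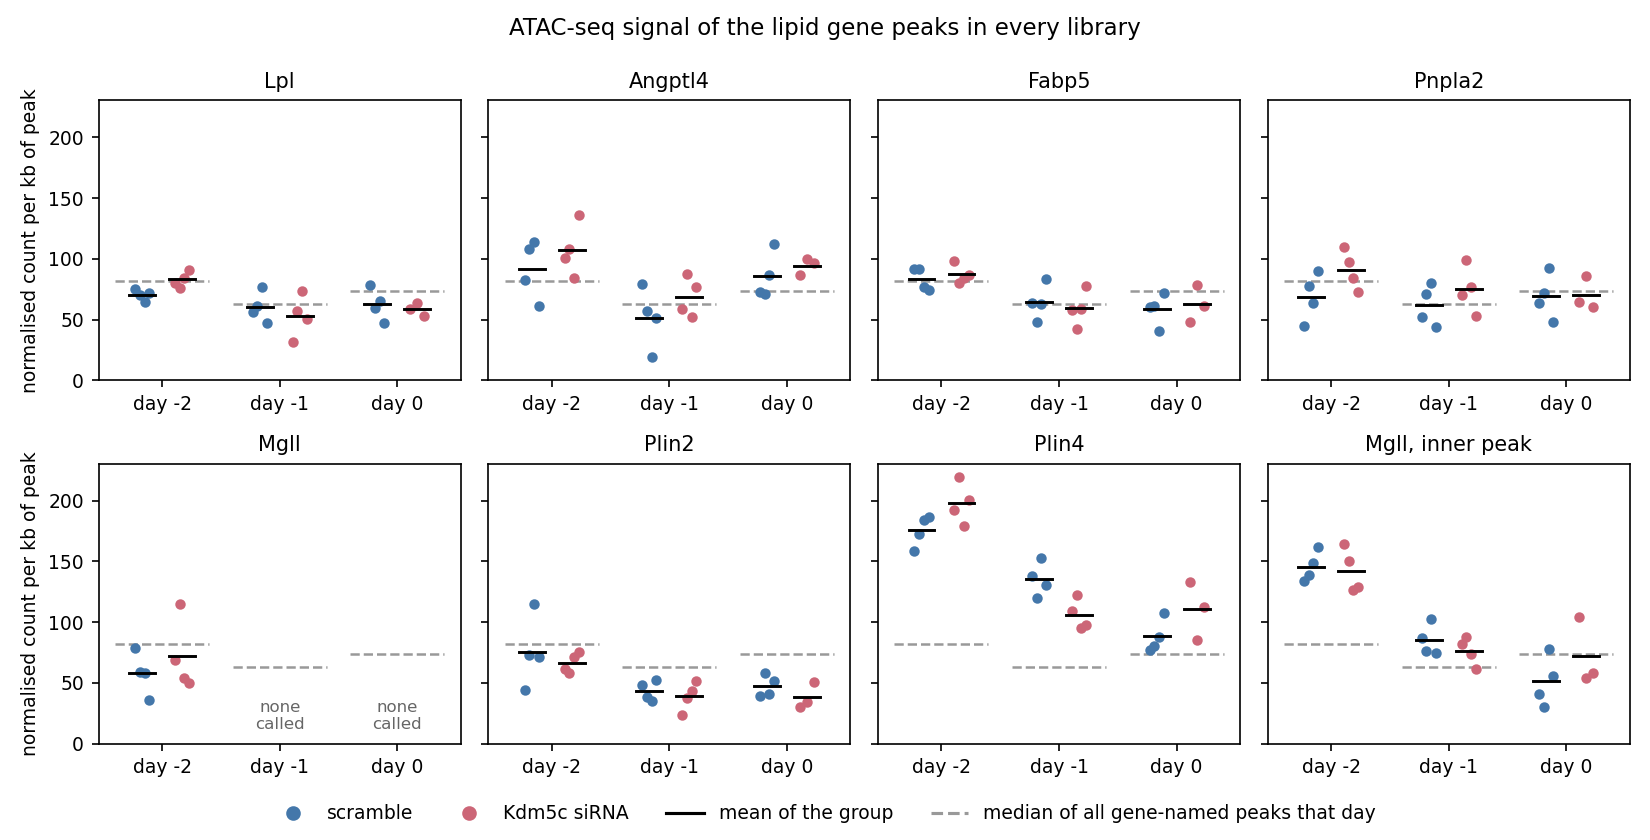
ATAC-seq signal as normalised count per kb of peak (y axis, linear) for each library (points) by day and arm, with group means (black lines, n = 4, or 3 for Kdm5c siRNA on day 0) and the median of all gene-named peaks of that day (dashed). The largest named peak of each gene and day is shown, and the last panel shows the unnamed peak inside Mgll; Plin4 lies above the dashed line in every library, and Mgll has no named peak on days -1 and 0.

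Levels were compared between genes per kb of peak. On day -2 the called peak was 460 bases wide at Plin4 and 1296 at Lpl, so the order below describes counts per kb alone. In scramble libraries of day -2 the order was Plin4 (175 ± 12.8, SD, n = 4), Angptl4 (91.5 ± 24.5), the first Fabp5 peak (83.8 ± 9.36), Plin2 (75.8 ± 29.1), Lpl (70.4 ± 4.40), Pnpla2 (68.9 ± 19.5) and Mgll (58.1 ± 17.4). Plin4 stood clear of the next gene, since its lowest scramble library held 159 per kb and the highest Angptl4 library 114. The other neighbours in this order did not differ beyond their spread. Plin4 was again highest on day -1, at 135 ± 13.6 (SD, n = 4). On day 0 Plin4 (88.3 ± 13.8) and Angptl4 (85.7 ± 19.2) overlapped, and Plin2 was lowest (47.5 ± 8.83).

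Against all gene-named nuclear peaks of the same day, Plin4 ranked at percentile 97.6, 94.9 and 76.2 on days -2, -1 and 0 over both arms. Plin2 ranked at 35.5, 11.3 and 6.71, the lowest named peak of the 7 genes on the 2 later days. Angptl4 ranked at 68.5, 44.8 and 68.7, Pnpla2 at 47.3, 58.5 and 44.1, Fabp5 at 54.1, 47.6 and 28.6, and Lpl at 43.2, 38.3 and 29.8. Mgll ranked at 26.9 on day -2. Of the named peaks, 4 of 8, 2 of 7 and 2 of 6 lay above the median named peak. Ranks come from lists of 12265, 9688 and 10131 peaks and are not read as a change between days.

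**Figure D2:**
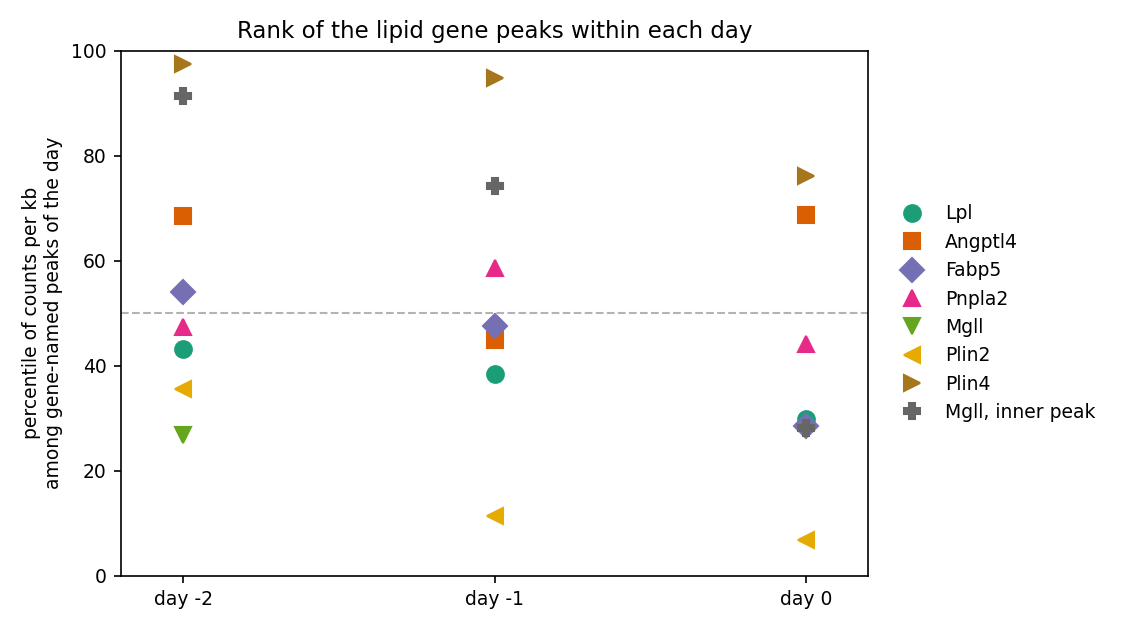
Percentile of each gene's largest named peak, by mean normalised count per kb over all libraries of the day, among all gene-named nuclear peaks of that day (y axis, 0 to 100; dashed line, 50). Plin4 is the highest named peak on each day (97.6, 94.9 and 76.2), Plin2 is lowest on days -1 and 0, and the unnamed peak inside Mgll is shown for comparison.

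Several peaks without a gene name were as accessible as the gene starts. One of them lay inside Mgll, at chr6:88746302-88746847 on day -2, with a counterpart on all 3 days. That inner peak ranked at percentile 91.5 among named peaks on day -2, 74.2 on day -1 and 28.2 on day 0. Beside Angptl4, an inner peak at chr17:33779160-33779837 ranked at 76.1, 80.4 and 67.5 and an outer one, 1786 bases from the gene at chr17:33783361-33783850, at 81.8, 84.1 and 63.4. A peak at chr7:141468670-141469092, 7927 bases from Pnpla2, ranked at 91.2, 65.5 and 50.5. By contrast a peak 1435 bases from Lpl ranked at 15.5, 1.06 and 2.65. Exons and introns were not separated here, and spans of neighbouring genes were not checked. Of the 27 unnamed peaks of day -2, 15 belonged to Mgll, which had 3 on day -1 and 4 on day 0, while the whole peak set went from 84019 to 31970 and 37054 peaks. Mgll spans 103949 bases, against 4026 to 43308 for the other genes searched, so the stretch searched for unnamed peaks was longest there. The part of this length in its number of peaks was not tested.

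The siRNA comparison asked whether Kdm5c siRNA moved accessibility at these genes before induction. No named peak of the 7 genes passed edgeR's quasi-likelihood test with Benjamini-Hochberg adjustment over all tested peaks of the day. The counts were 0 of 8 on day -2, 0 of 6 on day -1 and 0 of 6 on day 0, against 0.00404%, 0.0% and 0.00352% of all tested peaks (2 of 49455, 0 of 23304 and 1 of 28398). No named peak reached an unadjusted p under 0.05 either, where 4.63%, 5.38% and 5.99% of all peaks did, and DESeq2 called 0 on each day. The smallest adjusted p-values were 0.98, 0.919 and 0.87 on the 3 days. Fold changes, as log2 of Kdm5c siRNA over scramble, ran from -0.20 to 0.49 on day -2, from -0.35 to 0.36 on day -1 and from -0.25 to 0.32 on day 0. Their 95% intervals all lay between -0.72 and 1.13. The widest was that of the Mgll peak, and changes within that interval were not excluded there.

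Lpl on day -2 had a log2 fold change of 0.24 (95% interval -0.08 to 0.55, adjusted p = 0.98 by edgeR), and the inner Fabp5 peak 0.49 (-0.10 to 1.09, adjusted p = 0.98). These were the only named peaks whose arms did not overlap, 2 of 8 on day -2, 0 of 6 on day -1 and 0 of 6 on day 0, where 2.87%, 3.27% and 6.22% of all tested peaks had arms apart. Pnpla2 was 0.38 on day -2 (unadjusted p = 0.051), 0.27 on day -1 and 0.01 on day 0. Plin4 was 0.17, -0.35 and 0.32, with an unadjusted p of 0.052 on day -1 and 0.084 on day 0. Plin2 was below 0 on each day, at -0.20, -0.15 and -0.25, and Angptl4 above 0 on each day, at 0.23, 0.36 and 0.16. None of these passed the adjusted test. Scaled by total counts alone, where the median of all peaks moved to 0.44, 0.38 and 0.56, the sign of Plin2 flipped to 0.23, 0.23 and 0.36.

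**Figure D3:**
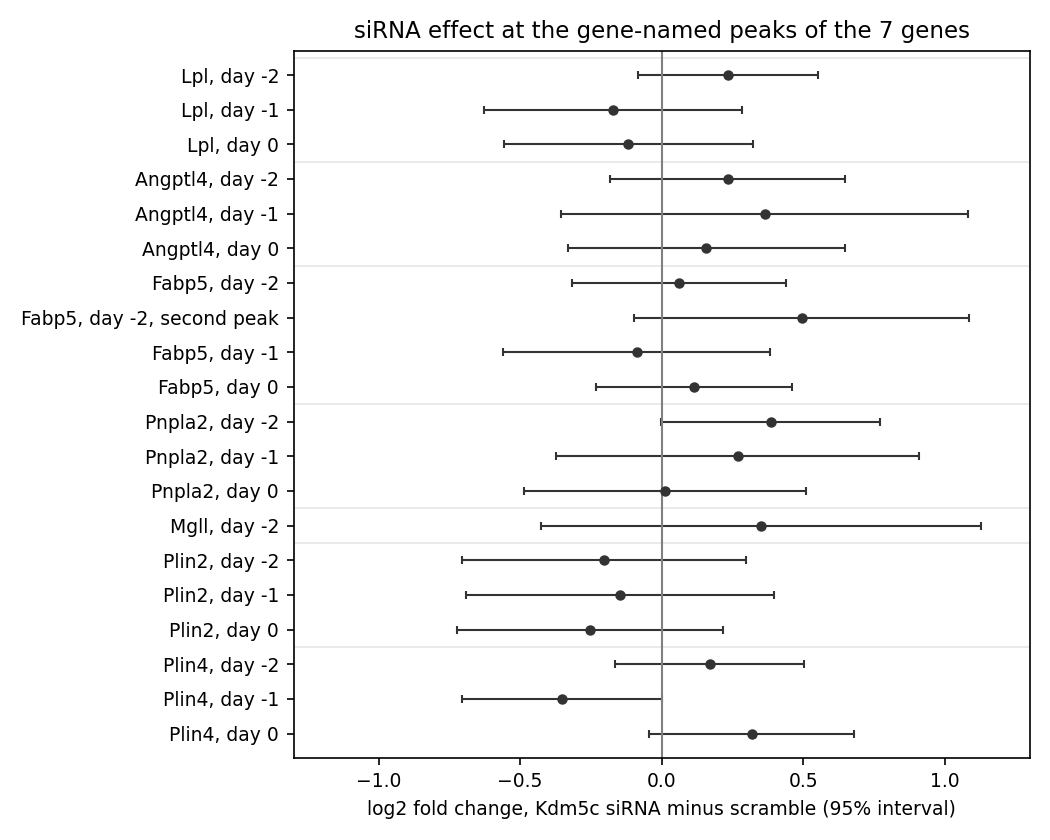
Log2 fold change of Kdm5c siRNA minus scramble (x axis) with 95% intervals from edgeR for the 20 tested named peaks, 1 row per gene and day. Every interval includes 0, and the fold changes lie between -0.35 and 0.49.

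Among the unnamed peaks 0 of 41 were called, and 2 of 22, 0 of 7 and 1 of 12 had an unadjusted p under 0.05, where 4.63%, 5.38% and 5.99% of all tested peaks did. The arms were apart at 2 of 22, 0 of 7 and 1 of 12, where 2.87%, 3.27% and 6.22% of all tested peaks had arms apart. The peak at chr7:141468670-141469092 beside Pnpla2 held 58.1, 66.6, 91.6 and 70.7 in scramble and 38.7, 47.2, 53.5 and 56.1 in Kdm5c siRNA on day -2, a log2 fold change of -0.56 (adjusted p = 0.98 by edgeR). Its arms did not overlap. The peak inside Plin4 at chr17:56101361-56101641 had a fold change of -0.73 on day -2 on the log2 scale. The outer Angptl4 peak, at chr17:33783313-33783781 on day 0, held 36.4, 35.7, 37.5 and 21.7 in scramble and 58.8, 45.2 and 40.3 in Kdm5c siRNA, a log2 fold change of 0.51 (adjusted p = 0.821 by edgeR). Again the arms were apart.

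Changes between days were tested at peaks matched 1 to 1 on all 3 days by 50% reciprocal overlap, over both arms. Of the 7 genes, 9 peaks could be matched, 3 of them named (Angptl4, Plin2 and Plin4). Of these 9, edgeR called 3 between days -2 and -1, 2 between days -1 and 0 and 3 between days -2 and 0, against 17.2%, 15.7% and 32.1% of the 13674 matched peaks. Without the day 0 Kdm5c siRNA library numbered 2, 4 were called between days -1 and 0. Days differed in depth, mitochondrial share and peak set, and the part of these in the changes was not tested. The called width of a peak also changed between days, so each change was computed again with counts divided by that day's width. This alternative was added after seeing the data. Per base 2, 2 and 3 of the 9 peaks were called in the same order of comparisons, against 12.3%, 11% and 20.2% of matched peaks.

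The inner Mgll peak fell. Scaled over all 23 libraries, it held 57.6, 57.2, 60.8 and 69.3 in scramble and 70.6, 66.5, 51.9 and 54.0 in Kdm5c siRNA on day -2. On day -1 it held 36.7, 32.3, 43.1 and 31.5 against 34.7, 37.2, 31.1 and 26.2, and on day 0 14.4, 11, 27.8 and 19.6 against 37.0, 18.9 and 20.5. All libraries of days -1 and 0 lay below all of day -2. It fell by 0.86 from day -2 to day -1 and by 0.69 from day -1 to day 0 on the log2 scale (adjusted p = 3.8e-05 and 0.0091 by edgeR). From day -2 to day 0 the log2 difference was -1.54 (SE 0.18, adjusted p = 2.4e-12). Per base of peak it was -0.34 (adjusted p = 0.17), -0.65 (adjusted p = 0.021) and -0.99 (adjusted p = 9.2e-06), while the peak narrowed from 545 to 337 and 344 bases. In Kdm5c siRNA libraries alone the step from day -1 to day 0 was -0.40 (adjusted p = 0.48).

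A second peak inside Mgll, at chr6:88774073-88774439, fell by 1.13 on the log2 scale from day -2 to day 0 (adjusted p = 0.00027 by edgeR). Per base this was -0.54 (adjusted p = 0.14). Its first step was -0.66 (adjusted p = 0.047), and leaving out any one of 10 of the 16 libraries of those days took the adjusted p to 0.051 or above (up to 0.122). DESeq2 gave that step an adjusted p of 0.057.

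The Angptl4 start peak fell and rose again in counts, by -0.98 from day -2 to day -1 and 0.90 from day -1 to day 0 on the log2 scale (adjusted p = 5.0e-05 and 0.00049 by edgeR). Over the same days its called width went from 567 to 287 and 444 bases, and per base the differences were -0.17 and 0.35 (adjusted p = 0.60 and 0.28). In Kdm5c siRNA libraries alone the second step was 0.80 (adjusted p = 0.085). Between days -2 and 0 the difference was -0.07 (adjusted p = 0.79). Plin2 was 0.57 higher on day 0 than on day -2 (adjusted p = 0.0084), but its peak widened from 529 to 974 bases, and per base the difference was -0.41 (adjusted p = 0.096). Without the day 0 Kdm5c siRNA library numbered 4 the Plin2 rise was 0.43 (adjusted p = 0.099), and in scramble or Kdm5c siRNA libraries alone it was 0.62 and 0.53 (adjusted p = 0.061 and 0.17). Scaled by total counts alone, where the median of all matched peaks was -1.01, it was -0.41. Plin4 was 0.18 by counts (adjusted p = 0.27) and -0.63 per base (adjusted p = 3.1e-05) between days -2 and 0, its peak having widened from 460 to 747 bases.

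For Lpl, Pnpla2 and Fabp5, whose peaks could not be matched 1 to 1, overlapping peaks of the 3 days were merged into 1 region, an alternative added after seeing the data. Lpl fell by 0.53 on the log2 scale from day -2 to day -1 (adjusted p = 0.0011 by edgeR), where 25.8% of 20217 regions were called (24.2% between days -1 and 0 and 41.9% between days -2 and 0). Pnpla2 fell by 0.87 in that step (adjusted p = 5.5e-05) and was 0.62 higher on day 0 than on day -1 (adjusted p = 0.010). Fabp5 was 0.36 higher on day 0 than on day -1 (adjusted p = 0.033). In scramble libraries alone the Lpl step was -0.32 (adjusted p = 0.28) and the Fabp5 step 0.25 (adjusted p = 0.41), so neither was called there, while the Pnpla2 steps were -0.80 and 0.76 (adjusted p = 0.028 and 0.048). As a merged region Plin4 was 0.32 higher on day -1 than on day -2 (adjusted p = 0.034), against 0.25 (adjusted p = 0.13) as a matched peak. In scramble libraries alone that region was 0.59 higher (adjusted p = 0.011), and per base over both arms it was -0.18 (adjusted p = 0.32). The merged Plin2 region was 0.65 higher on day 0 than on day -2 (adjusted p = 0.0018 by edgeR). In scramble libraries alone it was 0.69 higher (adjusted p = 0.024), and per base over both arms it was -0.44 (adjusted p = 0.066). Both regions held 1 peak on each day, as wide as the matched peak. Per base of called peak the differences named for Lpl, Pnpla2 and Fabp5 were 0.03, 0.22, -0.15 and -0.10, and none passed, where 16.2%, 14.3% and 20% of regions did for the 3 pairs of days. Among the 9 matched peaks and these 3 regions, the inner Mgll peak was the only one called lower on day 0 than on day -2 both by counts and per base. The peak 7927 bases from Pnpla2 was called per base only (-0.61, adjusted p = 0.0026, against -0.29 and adjusted p = 0.15 by counts).

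**Figure D4:**
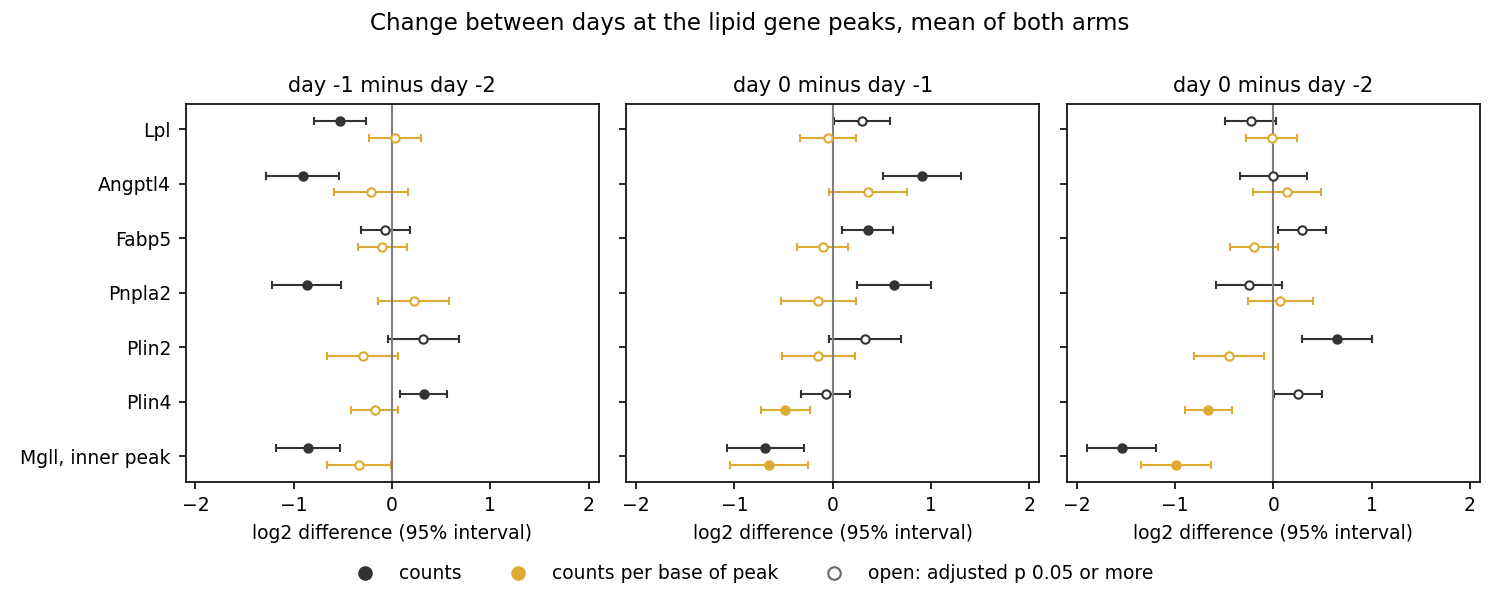
Log2 difference between days (x axis, 95% intervals, mean of both arms) by counts and by counts per base of called peak; filled points have an adjusted p under 0.05 by edgeR. Regions merged over days are shown for 6 genes and the matched peak for Mgll, whose inner peak is lower on day 0 than on day -2 on both scales (-1.54 and -0.99), while Fabp5, Pnpla2, Plin2 and Plin4 differ in sign between the scales for those days.

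The siRNA effect was not shown to differ between days at any matched peak of the 7 genes: edgeR's interaction test called 0 of 9 for each pair of days, and 0.0% of all matched peaks. At an unadjusted p under 0.05 there were 2, 1 and 1 of 9 for days -1 and -2, days 0 and -1 and days 0 and -2, where 4.92%, 5.21% and 6.4% of all matched peaks were, and DESeq2 called 0 as well. They were Plin4 and the peak beside Pnpla2. The log2 siRNA effect at Plin4 was 0.65 higher on day 0 than on day -1 (adjusted p = 0.87 by edgeR) and differed by -0.54 between days -1 and -2 (adjusted p = 0.956). At the peak beside Pnpla2 it was 0.81 higher on day -1 and 0.82 higher on day 0 than on day -2 (adjusted p = 0.956 and 0.687). That peak was given to Pnpla2 by distance alone.

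A wider list of 70 other genes of these pathways, 24 of lipolysis, 21 of lipid droplets and 25 of lipid uptake and lipase control, was read at named peaks alone. Ranks and siRNA tests used each gene's named peak with the highest mean normalised count of the day. Changes between days used the matched named peak, which can be another peak of the gene. Over all genes, 11026, 8998 and 9366 had a named peak on days -2, -1 and 0. Of the 70 listed genes 44, 34 and 37 had one on these days, and 26 had none on any day. The latter included Lipe (hormone-sensitive lipase), Adrb3 (the fat cell adrenergic receptor), the droplet proteins Plin1, Plin5, Cidea and Cidec, and the uptake genes Cd36, Fabp4, Gpihbp1 and Slc27a1. Sel1l, an endoplasmic reticulum factor that Lpl maturation needs, was the most accessible of the list on each day, at percentile 99.7, 99.7 and 99.5 of named peaks. Aup1 followed at 98.4, 98.5 and 98. The third highest were Angptl2 on day -2 (97.4), Dagla on day -1 (95.3) and Prkaca, a catalytic subunit of protein kinase A, on day 0 (97.0). Among the lowest were Lipg, Aqp7 and G0s2 on day -2 (2.42, 3.50 and 7.35), Npr1 and Vps13c on day -1 (2.80 and 13.3) and Lipg, Bscl2 and Acot1 on day 0 (5.49, 8.62 and 9.54).

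For siRNA, edgeR called 0 of 44, 0 of 33 and 0 of 37 tested peaks of the wider list, and 2 on each day had an unadjusted p under 0.05, where 4.63%, 5.38% and 5.99% of all tested peaks did. The median log2 fold change was 0.02, -0.04 and -0.07, against 0.03, -0.00 and -0.01 over all named peaks tested. Of 27 genes of the list matched on all 3 days, 3 were higher and 4 lower on day 0 than on day -2 (adjusted p under 0.05 by edgeR), with a median of -0.06 against 0.01 over all matched peaks. Over all matched peaks 15.7% were higher and 16.4% lower. Those higher were Got2, Plin3, which encodes a further perilipin, and Sel1l, and those lower Angptl2, Cav1, Lipa (lysosomal acid lipase) and Prkar2b. Per base, 1 was higher (Lmf1) and 3 lower (Angptl2, Cav1 and Hsd17b11), against 9.76% and 10.5%. From day -2 to day -1, Acsl1, Plin3 and Pnpla6 were higher and Angptl2, Cav1, Hilpda and Lmf1 lower, 3 and 4 of 27 against 8.91% and 8.26%. Per base 0 were higher and 3 lower (Abhd5, the coactivator of Pnpla2, with Prkar2b and Rab18), against 5.48% and 6.79%. From day -1 to day 0, Aup1 and Ddhd2 were higher and Acsl1, Lipa and Prkar2b lower, 2 and 3 of 27 against 6.67% and 9.05%. Per base 3 were higher (Abhd5, Lmf1 and Prkaca) and 2 lower (Cav1 and Lipa), against 5.67% and 5.29%. Cav1 and Angptl2 were lower on day 0 than on day -2 on both scales.

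Among 6888 named peaks matched on all 3 days, peaks most like each gene over the 23 libraries were listed by Pearson's r of log2 normalised counts. For Angptl4 they were Pdlim7 (r = 0.886) and Ss18 (0.811), for Plin2 Med14 (0.849), and for Plin4 Foxn2 (0.723) and Srebf2 (0.679). The libraries share days, depth and each day's peak widths. Within single days r ranged from 0.376 to 0.921 for Pdlim7, 0.244 to 0.777 for Ss18, 0.634 to 0.949 for Med14, 0.369 to 0.931 for Foxn2 and 0.490 to 0.770 for Srebf2.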

How the data were processed

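Accessibility was measured by ATAC-seq in 23 libraries of 3T3-L1 cells. For each day the authors deposited whole-number counts per peak, and a normalised signal for the peaks with a gene name; each library's deposited signal equalled its count divided by a constant, so the tests used the counts. The submitters' processing notes name HTSeq 0.9.1, DESeq2 1.24.0, Bowtie2 2.2.9, cutadapt 2.3 and MACS2 2.1.1, with GRCm38 (mm10). Their settings, the transposase offset, duplicate removal and the rule for gene names were not given in the sources used here. Peaks were called separately for each day, so widths differ between days. Coordinates are as deposited.

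Peaks of the 7 genes were found by symbol; unnamed peaks were placed by gene spans of GRCm38.p6, whose table held 96.6% of the 11533 gene names. Each day was fitted alone with edgeR 4.0.16 in R 4.3.3 (TMM, filterByExpr, quasi-likelihood F test, no covariate), and peaks with an adjusted p under 0.05 were called. For days, bedtools 2.31.1 matched peaks by 50% reciprocal overlap and 1 fit over 6 group means gave each contrast. The scripts were tested on simulated counts. Normalised counts are counts divided by the TMM effective library size relative to its geometric mean over the day, or over all libraries where days are compared. TMM takes most peaks as unchanged on average, and fold changes are read against that majority. Percentiles use counts per kb among gene-named nuclear peaks of the day.

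The text names all 7 genes with every named peak (unnamed peaks are counted, and those described were singled out after their values were seen), every called gene of the wider list with the 3 most and 3 least accessible ones on each day, and the 2 peaks most alike for each matched gene (log2 of normalised count plus 1). Some genes that this rule names are not reported here. The members and the lists were chosen with earlier results of these data known. Alternatives covered normalization, low-count filter, DESeq2 1.42.0, mitochondrial peaks, replicate block, single libraries, peak matching and arms. Added after seeing the data were peak width and merged regions.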

Additional observations from a re-analysis of the deposited data

How the results depend on the processing

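Under RLE scaling, no filter, DESeq2, no mitochondrial peaks and the fit of all 3 days together, the number of called peaks of the 7 genes kept within 1.5 times of its value. Over all alternatives, 596 recomputed fold changes kept their sign and their side of the threshold, 35 changed sign, 25 lost the call and 7 gained one. Scaling by total counts alone moved most, since it shifted the median of all peaks by 0.44, 0.38 and 0.56 for siRNA and by -1.58, 0.56 and -1.01 between days. It called 1 peak of the 7 genes for siRNA on day -2 (Pnpla2, 0.88, adjusted p = 0.033 by edgeR), and 9, 4 and 8 of 9 matched peaks between days -2 and -1, -1 and 0, and -2 and 0. Over all peaks it called 1224, 1 and 0 for siRNA, against 2, 0 and 1, and 13614, 8049 and 12786 between days, against 2348, 2150 and 4394.

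With total counts alone the siRNA sign flipped for Plin2 (0.23, 0.23 and 0.36 on days -2, -1 and 0), for Lpl (0.17 and 0.42 on days -1 and 0), and on day -1 for Plin4 (0.028) and Fabp5 (0.33). Between days -2 and -1 it flipped Plin4 (-1.31) and Plin2 (-1.31), between days -1 and 0 Plin4 (0.47) and the second Mgll peak (0.026), and between days -2 and 0 Plin4 (-0.84) and Plin2 (-0.41). In Kdm5c siRNA libraries alone 0 of 9 were called between days -1 and 0, and Plin4 was -0.014 and 0.25 in the first and second step. Per base of peak the sign flipped for Plin4 (-0.13) and Plin2 (-0.25) in the first step, for Plin2 (-0.16) in the second, and for Angptl4 (0.17), Plin4 (-0.63) and Plin2 (-0.41) between days -2 and 0. Among all nuclear peaks, 17 of 21 named peaks lay above the median in place of 8. That median was 62.4, 54.4 and 60.7 per kb on days -2, -1 and 0, against 82.1, 63.1 and 73.6 for all gene-named peaks. The lower quartile of all gene-named peaks was 63.4, 49.9 and 58.1, above that median on day -2 alone. Whether these 21 peaks differ in this from other gene-named peaks was not tested.

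Leaving out 1 library at a time gave siRNA fold changes on both sides of 0, none of them called: on day -2 Fabp5 from -0.017 to 0.10 and Plin2 from -0.40 to 0.063, on day -1 Fabp5 from -0.27 to 0.062, Plin2 from -0.33 to 0.027 and Lpl from -0.36 to 0.0046, and on day 0 Fabp5 from -0.064 to 0.24, Pnpla2 from -0.16 to 0.17 and Lpl from -0.23 to 0.0047. The number called between days -1 and 0 ran from 2 to 4. Deviations of same-numbered libraries correlated between -0.039 and 0.16 (day -2), between -0.022 and 0.027 (day -1) and between -0.030 and -0.011 (day 0). For different numbers the ranges were -0.16 to 0.12, -0.033 to 0.029 and -0.014 to 0.031. The highest same-numbered value of day -2 lay above all different-numbered ones. With 4 such pairs on days -2 and -1 and 3 on day 0, whether the numbers pair the libraries was not settled. With the replicate block, 0 peaks of the 7 genes were called for siRNA on any day, the 3, 2 and 3 calls between days were again 3, 2 and 3, and Fabp5 on day 0 was -0.052. The block called 5, 1 and 0 peaks over all for siRNA.

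Counts of 3 to 161 per named peak and library limit the precision of single peaks.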
